A study of Rattus norvegicus with 8 samples.

Results

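MicroRNA levels in cultures of C6, a tumour line of rat glia, were compared between haloperidol, a first-generation antipsychotic that blocks dopamine D2 receptors, and the second-generation antipsychotics risperidone and clozapine, which also act on serotonin and other receptors. The 2 haloperidol arrays were set against the 4 arrays of risperidone and clozapine (2 each), out of 8 arrays in the series; no untreated array entered, so every difference is between treated cultures. Cultures received a drug every day over 5 days, at 2 µg/ml for haloperidol, 4 µg/ml for risperidone and 25 µg/ml for clozapine, in medium with horse serum and fetal bovine serum. The concentrations were stated to follow therapeutic levels; they differ, so drug and concentration cannot be told apart. The 2 arrays of a drug were stated to be biological repeats. Members were the miRNAs called detected on both arrays of at least 1 of the 3 drugs, which gave 238 of the 719 rat miRNAs on the array.

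MicroRNAs are short RNAs that guide Argonaute proteins to messenger RNAs and lower their stability or translation. Target choice rests mostly on the seed, bases 2 to 8 of the mature strand, so miRNAs that share a seed are grouped into families. A hairpin precursor can give a mature strand from either of its arms, named 5p and 3p.

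Of the 238 miRNAs, 16 (6.72%) had haloperidol arrays outside the range of the other 4. The miR-34 family gave 3 of them (miR-34a-5p, miR-34a-3p and miR-34b-3p) and the miR-181 family 3, while miR-449a-5p was not among them. Mature sequences of these families and miR-449a (RefSeq, GRCr8) are shown with the seed in capitals. All 4 tested members with the seed GGCAGUG lay higher with haloperidol, against 63.4% of all 238 miRNAs. Of the 16, only miR-34a-5p has this seed. With the seed ACAUUCA 3 of the 4 tested members lay lower, against 34.9% of all.
miR-34a-5p: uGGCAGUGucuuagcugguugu
miR-34b-5p: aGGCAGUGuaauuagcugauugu
miR-34c-5p: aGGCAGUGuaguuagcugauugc
miR-449a-5p: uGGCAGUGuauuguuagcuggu
miR-34a-3p: aAUCAGCAaguauacugcccua
miR-34b-3p: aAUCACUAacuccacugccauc
miR-34c-3p: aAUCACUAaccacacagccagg
miR-181a-5p: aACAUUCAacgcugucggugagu
miR-181b-5p: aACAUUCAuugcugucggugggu
miR-181c-5p: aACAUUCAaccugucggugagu
miR-181d-5p: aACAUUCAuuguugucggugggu
miR-181a-1-3p: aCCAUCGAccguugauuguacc

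The miR-34a hairpin, at chr5:165815952-165816053 on the plus strand of GRCr8 within the long noncoding RNA gene LOC103692514, gave both of its arms to the list of miRNAs whose haloperidol arrays did not overlap the other arrays. It is printed with the 5p and 3p strands in capitals.
Mir34a hairpin: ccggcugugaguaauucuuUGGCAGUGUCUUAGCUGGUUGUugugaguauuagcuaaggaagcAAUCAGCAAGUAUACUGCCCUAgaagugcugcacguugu

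Each array, an Agilent single-colour (Cy3) design, took 100 ng of total RNA. A level is the log2 of a miRNA's background-subtracted signal, summed over its probes and scaled to the 75th percentile of 296 probes that were above background on all 6 arrays; levels stop at a floor of -6.20. Levels of different miRNAs depend on their probes and are not compared with each other. In each slide row the haloperidol array had the highest overall signal. The 75th percentile was 1478 and 929 signal units with haloperidol, 1074 and 368 under risperidone, and 778 and 671 under clozapine (rows 1 and 2; exact permutation p = 0.2, two-sided, where 2 arrays against 4 cannot give less than 0.0667). The number of miRNAs detected was 254 and 242 under haloperidol, 249 and 193 under risperidone, and 233 and 203 under clozapine (exact permutation p = 0.2). The log10 labelling spike-in was 3.06 and 2.99 under haloperidol against 2.73 to 3.01 on the other 4 arrays (exact permutation p = 0.4). Replicate number was also the slide row and treatment was also the slide column, so column and drug cannot be told apart.

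No miRNA passed the threshold. Limma, with 1 mean per drug and Benjamini-Hochberg adjustment over the 238 miRNAs, called 0 (0.0%) at an adjusted p under 0.05 for haloperidol minus the mean of risperidone and clozapine, and the smallest adjusted p was 1.0. At an unadjusted p under 0.05 there were 3 (1.26%), namely miR-34a-5p and miR-34a-3p with higher (2, 0.84%) and miR-181a-1-3p with lower levels under haloperidol. That count depended on single arrays: it was 18 without risperidone replicate 1, 7 without clozapine replicate 1, 5 without clozapine replicate 2 and 1 without risperidone replicate 2, with the lone array left in that drug taken to vary like the others. None was 2-fold or more apart (0.0%), with differences from -0.55 (miR-331-3p) to 0.99 (miR-34a-3p) on the log2 scale and a median standard error of 0.22. For 155 of the 238 (65.1%) the 95% interval of the difference stayed within 1 log2 unit of 0.

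Across all 238 miRNAs, 151 (63.4%) had a difference above 0 and 83 (34.9%) below 0, with a median of 0.05. This split follows the scaling. With no scaling between arrays 100.0% were above 0 and the median was 0.81; with the percentile taken over all probes 12.2% were above 0 (median -0.40), and with normexp background correction 16.4% (median -0.58). Directions are therefore also given relative to the median of all tested miRNAs where a scaling turns them.

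The 2 haloperidol arrays both lay above all 4 second-generation arrays for 10 miRNAs (4.2% of 238) and both below for 6 (2.52%), 16 in all (6.72%). The 10 were miR-34a-5p, miR-34a-3p, miR-34b-3p, miR-1839-5p, miR-500-3p, miR-185-5p, miR-93-5p, miR-29a-3p, miR-98-5p and miR-466b-5p. The 6 were miR-181a-1-3p, miR-181b-5p, miR-181d-5p, miR-331-3p, miR-212-3p and miR-30d-5p. Of these 16, 3 belonged to the miR-34 hairpins and 3 to the miR-181 hairpins. The count was 51 without haloperidol replicate 1, 76 without haloperidol replicate 2, 41 without risperidone replicate 1 and 34 without clozapine replicate 2; fewer arrays leave fewer chances of overlap.

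**Figure D1:**
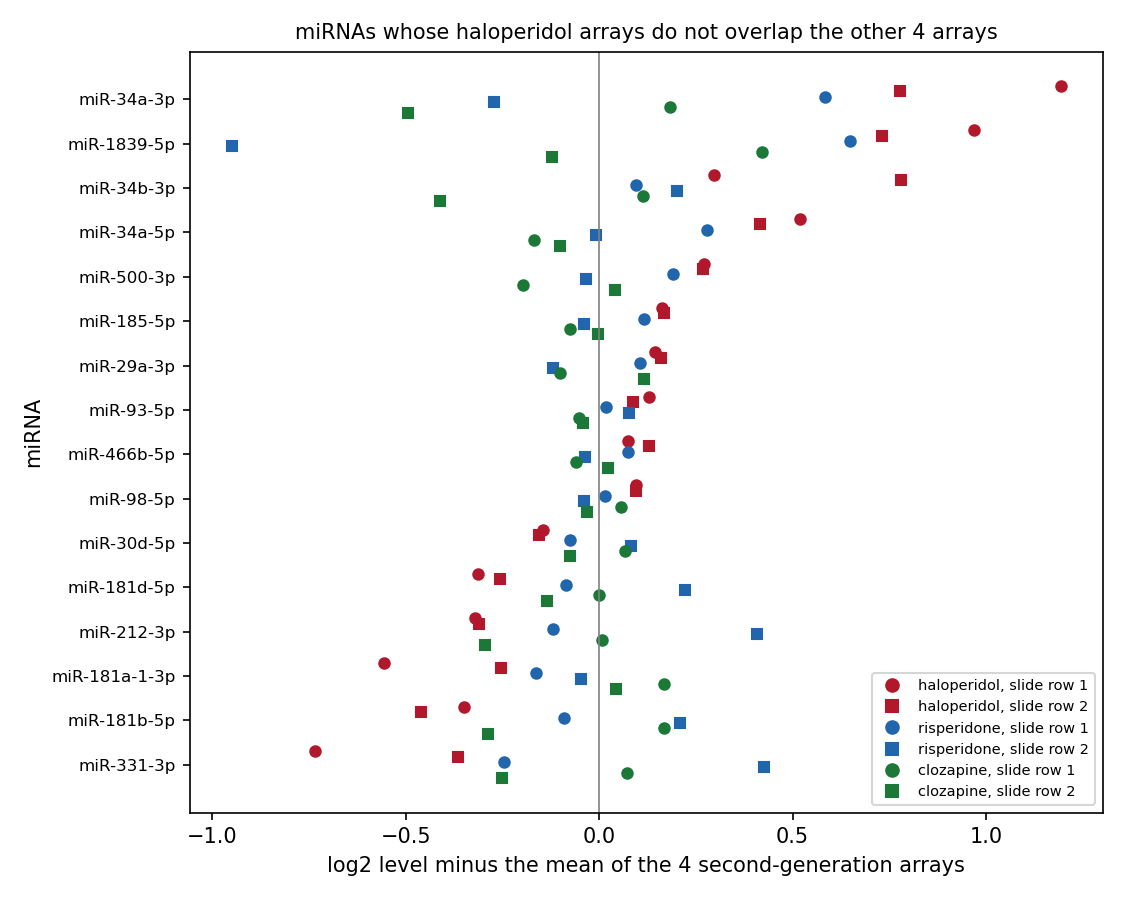
The 16 miRNAs whose haloperidol arrays (red) lay on one side of all 4 arrays of risperidone (blue) and clozapine (green), as log2 level minus the mean of those 4 arrays, with circles for slide row 1 and squares for row 2. The gap between haloperidol and the nearest other array is small for miRNAs such as miR-93-5p (difference 0.11), and no miRNA passed the adjusted threshold.

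The miR-34 family is transcribed under p53 and restrains cell cycle genes. miR-34a-5p had levels of 1.29 and 1.19 under haloperidol (slide rows 1 and 2), 1.05 and 0.77 under risperidone, and 0.61 and 0.67 under clozapine. Both haloperidol arrays were the highest of the 6, and each clozapine array was below both risperidone arrays. The difference from the second-generation mean was 0.47 (SE 0.12, 95% interval 0.13 to 0.80; 1.38-fold) and the adjusted p from limma was 1.0. It was 0.47 in row 1 and 0.47 in row 2, and between 0.40 and 0.54 with any single array left out. With the percentile over all probes it was -0.012, which was 0.39 above that setting's median.

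miR-34a-3p, the strand from the other arm of the same hairpin, had levels of -4.22 and -4.64 under haloperidol, -4.83 and -5.69 under risperidone, and -5.23 and -5.91 under clozapine. The groups did not overlap, and in each row the haloperidol array was the highest and the clozapine array the lowest. The difference was 0.99 (SE 0.36, interval 0.02 to 1.96; 1.98-fold), the largest of the 238, at an adjusted limma p of 1.0. The signal was dim, it was called detected on 5 of the 6 arrays, and with normexp the difference turned to -0.75, which was 0.17 below that setting's median.

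miR-34b and miR-34c come from neighbouring hairpins on chromosome 8 (chr8:60306101-60306679, minus strand, GRCr8), within the protein-coding gene Hoatz. miR-34b-3p had levels of -5.08 and -4.59 under haloperidol, -5.28 and -5.17 under risperidone, and -5.26 and -5.78 under clozapine. Its groups did not overlap; the difference was 0.54 (SE 0.23, interval -0.09 to 1.16). It was 0.78 without haloperidol replicate 1 and 0.30 without haloperidol replicate 2, and with normexp it turned to -0.88, which was 0.31 below that setting's median. miR-34b-5p had -0.47 and 0.12 under haloperidol, -0.31 and -0.43 under risperidone, and -1.32 and -0.27 under clozapine. Here the row 1 haloperidol array lay among the second-generation arrays, and the difference was 0.41 (SE 0.37). miR-34c-5p differed by 0.26 (SE 0.38) with overlapping groups, and miR-34c-3p was at the floor on all arrays but haloperidol replicate 2 (-5.90), so its 0.15 rests on that array. The 5p strands of miR-34b and miR-34c differ at 2 of 23 bases, and signal from one may reach the probes of the other.

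miR-449a-5p has the same seed as miR-34 and is transcribed from a separate locus on chromosome 2 (chr2:46403925-46403946, plus strand, within the long noncoding RNA gene LOC134485839). Its levels were -1.61 and -1.96 under haloperidol, -1.74 and -2.48 under risperidone, and -2.06 and -2.03 under clozapine. The haloperidol array was the highest in each row, although the groups overlapped across rows (difference 0.29, SE 0.26). All 4 tested miRNAs with the seed GGCAGUG were thus above 0, with a median of 0.35 against 0.05 over all 238. Among the 26 seeds shared by 2 or more tested miRNAs this was the highest median. Next was AUCACUA, the seed of miR-34b-3p and miR-34c-3p, at 0.34. The order was not kept with the deposited gene-level signal, the percentile over all probes or normexp. Nor was it kept without haloperidol replicate 1 (0.53 against 0.54 for AUCACUA) or without clozapine replicate 1 (0.21 against 0.41). With the percentile over all probes 0 of the 4 were above 0 but all 4 stayed above that setting's median, and with normexp 3 of the 4 were above 0 and all 4 above its median. Without haloperidol replicate 2, 3 of the 4 were above 0.

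The list of p53-responsive miRNAs, miR-34 and miR-449 had 9 tested members of 13. Of these 8 were above 0, none passed the threshold, and the median was 0.29 (0.21 in row 1 and 0.39 in row 2). Its other tested members were miR-192-5p (0.26) and miR-143-3p (-0.14), while miR-145-5p and miR-215 were detected on 0 arrays. The list's median was -0.01 with the percentile over all probes and -0.75 with normexp, where it was 0.17 below the median of all miRNAs.

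**Figure D2:**
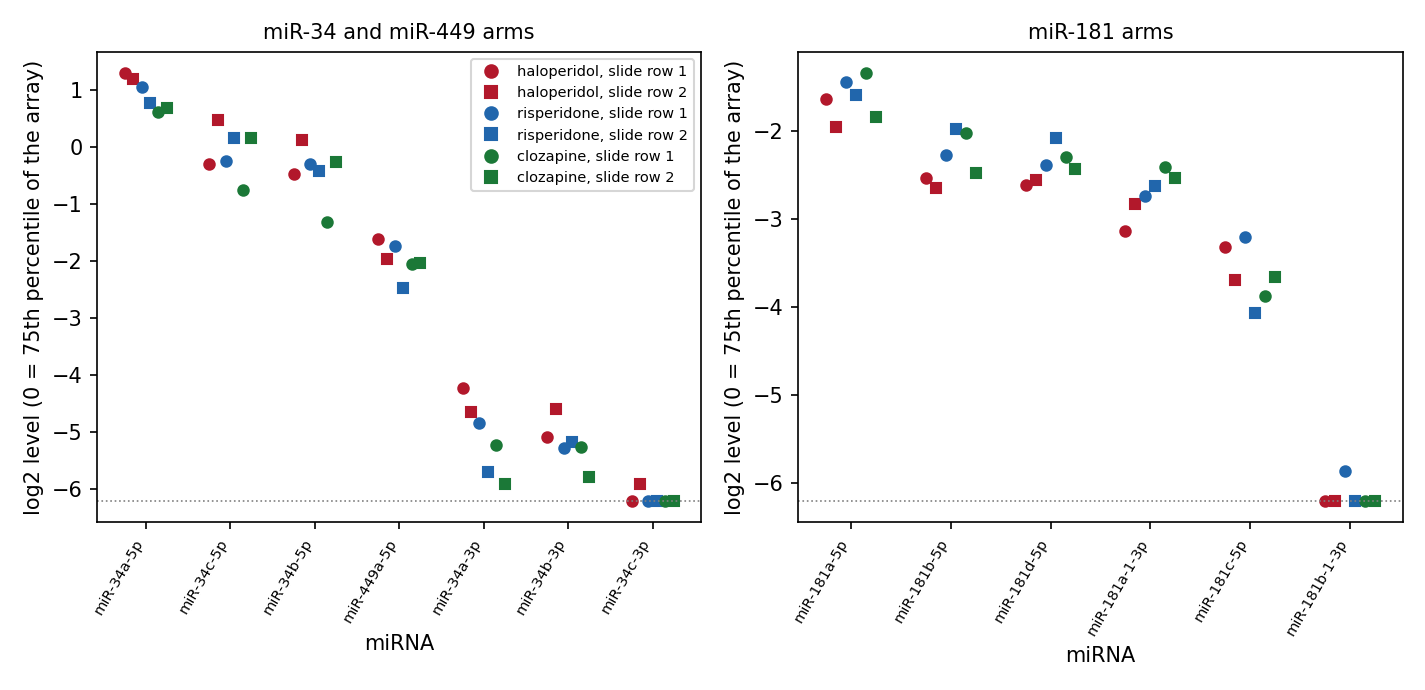
Log2 levels on each of the 6 arrays for the 7 tested miR-34 and miR-449 arms (left) and the 6 tested miR-181 arms (right), coloured by drug, with circles for slide row 1, squares for row 2 and a dotted line at the floor. Levels are to be read within a miRNA: haloperidol lies at the top for miR-34a-5p and miR-34a-3p (differences 0.47 and 0.99) and at the bottom for miR-181a-1-3p, miR-181b-5p and miR-181d-5p (-0.40, -0.40 and -0.28).

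The miR-181 family is abundant in brain and in lymphocytes and has been studied as a restraint on glioma growth. miR-181a-1-3p had levels of -3.14 and -2.83 under haloperidol, -2.74 and -2.63 under risperidone, and -2.41 and -2.54 under clozapine. Both haloperidol arrays lay below the other 4 and both clozapine arrays above both risperidone arrays. The difference was -0.40 (SE 0.13, interval -0.76 to -0.05; 1.32-fold lower with haloperidol) and the adjusted p from limma was 1.0. It was -0.56 in row 1 and -0.25 in row 2.

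miR-181b-5p had -2.53 and -2.65 under haloperidol, -2.27 and -1.97 under risperidone, and -2.02 and -2.47 under clozapine. miR-181d-5p had -2.61 and -2.56 under haloperidol, -2.38 and -2.08 under risperidone, and -2.30 and -2.43 under clozapine. In both the groups did not overlap, with differences of -0.40 (SE 0.19, interval -0.91 to 0.10) and -0.28 (SE 0.13, interval -0.64 to 0.07). The 2 strands differ at 1 of 23 bases, so their probes may not separate them.

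The tested miRNAs of the miR-181a-1 and miR-181b-1 hairpins were all below 0. These hairpins lie together on chromosome 13 (chr13:52037081-52037323, plus strand, within the long noncoding RNA gene LOC108352541). The tested miRNAs placed there alone were miR-181a-1-3p, miR-181b-5p and miR-181b-1-3p (-0.08), the last at the floor on all arrays but risperidone replicate 1. miR-181a-5p, from the miR-181a-1 hairpin and a copy on chromosome 3, differed by -0.24 (SE 0.20). miR-181c-5p lay the other way at 0.20 (SE 0.30). The 4 tested members with the seed ACAUUCA had a median of -0.26, with -0.25 in row 1 and -0.27 in row 2. It was the lowest of the 26 shared seeds, but not with no scaling or with normexp. With no scaling all 4 were above 0 (median 0.53), but 3 of the 4 stayed below that setting's median of 0.81. With any single array left out the median was between -0.34 and -0.18.

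Of the other 10 miRNAs with groups that did not overlap, 7 lay higher and 3 lower with haloperidol. miR-1839-5p, whose RefSeq hairpin carries the small Cajal body RNA name Scarna15, had -4.28 and -4.52 under haloperidol, -4.60 and -6.20 under risperidone, and -4.83 and -5.37 under clozapine. Risperidone replicate 2 was at the floor, and the difference of 0.85 (SE 0.51) was 0.45 without that array and turned to -0.88 with normexp, which was 0.30 below that setting's median. miR-331-3p, from within the Vezt gene, had -3.81 and -3.44 under haloperidol, -3.32 and -2.65 under risperidone, and -2.9999 and -3.32 under clozapine. Its -0.55 (SE 0.26, interval -1.26 to 0.16; -0.36 without haloperidol replicate 1) was the lowest of the 238.

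miR-212-3p, which CREB induces in neurons, had 0.08 and 0.09 under haloperidol, 0.28 and 0.81 under risperidone, and 0.40 and 0.10 under clozapine. The clozapine row 2 array was next to haloperidol, and the difference was -0.32 (SE 0.20; -0.18 without risperidone replicate 2). It was the only tested member of the CREB-responsive list; miR-132-3p, miR-132-5p and miR-212-5p were detected on 0 arrays. miR-30d-5p lay lower by a smaller margin, with -2.13 and -2.14 against -2.06 to -1.90 on the other 4 arrays (difference -0.15, SE 0.10). With no scaling the 6 miRNAs that lay lower with haloperidol had differences of 0.25 to 0.65, all under that setting's median of 0.81; with normexp miR-212-3p and miR-30d-5p were 0.24 and 0.06 above the median.

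miR-500-3p, from the Clcn5 locus, had -2.12 and -2.12 under haloperidol against -2.59 to -2.20 on the second-generation arrays (difference 0.27, SE 0.13). miR-185-5p, in the Tango2 locus, had -2.50 and -2.50 against -2.74 to -2.55 (0.16, SE 0.10). miR-29a-3p, which targets collagen and other matrix transcripts, had 4.27 and 4.28 against 4.00 to 4.24 (0.15, SE 0.12). These were close pairs of haloperidol arrays just outside the range of the rest. miR-93-5p of the Mcm7 locus (0.11), the let-7 relative miR-98-5p of the Huwe1 locus (0.10) and miR-466b-5p of the Sfmbt2 locus (0.10) differed by the least, with standard errors of 0.08 to 0.09. For miR-500-3p, miR-185-5p, miR-29a-3p, miR-93-5p, miR-98-5p and miR-466b-5p the sign turned with the percentile over all probes, where each stayed 0.02 to 0.19 above the median of all miRNAs.

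The other families were described by counts and medians, with 0 members past the threshold in each (0.0% over all miRNAs). The miR-29 family had 3 of 3 above 0 (median 0.15), and let-7 with miR-98, which restrains growth programmes, 6 of 8 (0.06). The miR-17 to miR-92a cluster and its paralogues, which promote proliferation, had 9 of 10 above 0 (0.07), and the miR-15/16 seed with miR-322 and miR-503 had 5 of 6 (0.09). These last medians are close to the 0.05 over all 238. Below 0 lay 3 of 5 of the miR-30 family (median -0.05), 4 of 5 of the miR-23/27/24 clusters (-0.05) and 3 of 4 of the miR-221 and miR-222 cluster (-0.08). With 1 array left out the sign also turned for let-7 (-0.03 without haloperidol replicate 1), miR-17 to miR-92a (-0.03 without clozapine replicate 1 and -0.02 without haloperidol replicate 2), miR-15 and miR-16 (-0.01 without risperidone replicate 2), miR-23/27/24 (0.01 without haloperidol replicate 2) and miR-30 (0.03 without haloperidol replicate 2 and 0.02 without risperidone replicate 1). Each of these 7 medians turned sign under at least 1 scaling (percentile over all probes for those above 0, no scaling for those below); the miR-29 family then still had 3 of 3 above that setting's median.

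Among the lists tied to the drugs or the tumour, miRNAs studied in schizophrenia had 6 of 10 tested members above 0, against 63.4% of all miRNAs (median 0.05, from -0.40 for miR-181b-5p to 0.46 for miR-219-5p). That median was -0.02 without haloperidol replicate 1, -0.04 without risperidone replicate 2 and -0.01 without clozapine replicate 2. Those reported as raised by haloperidol in rat cortex had 2 of 3 above 0: miR-199a-5p (0.17) and miR-128-3p (0.10), against miR-199a-3p (-0.04). Of those reported to target dopamine receptor transcripts, miR-9a-5p (0.12) and miR-326-3p (0.11) were tested. Glioma growth-promoting miRNAs had 2 of 6 above 0 (median -0.04), with miR-21-5p at -0.22 and miR-10b-5p at 0.37, the latter at the floor on 4 arrays. Growth-restraining ones had 6 of 8 above 0 (0.09), from miR-34a-5p at 0.47 to miR-181b-5p at -0.40; this median was -0.01, -0.03 and -0.005 without the same arrays in turn. In the Dlk1-Dio3 imprinted cluster only 3 of 36 were tested: miR-494-3p (-0.39), miR-370-3p (-0.16) and miR-487b-3p (-0.15). The sterol-linked miR-33-5p, from the Srebf2 intron, had a difference of 0.15 with a standard error of 0.75.

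**Figure D3:**
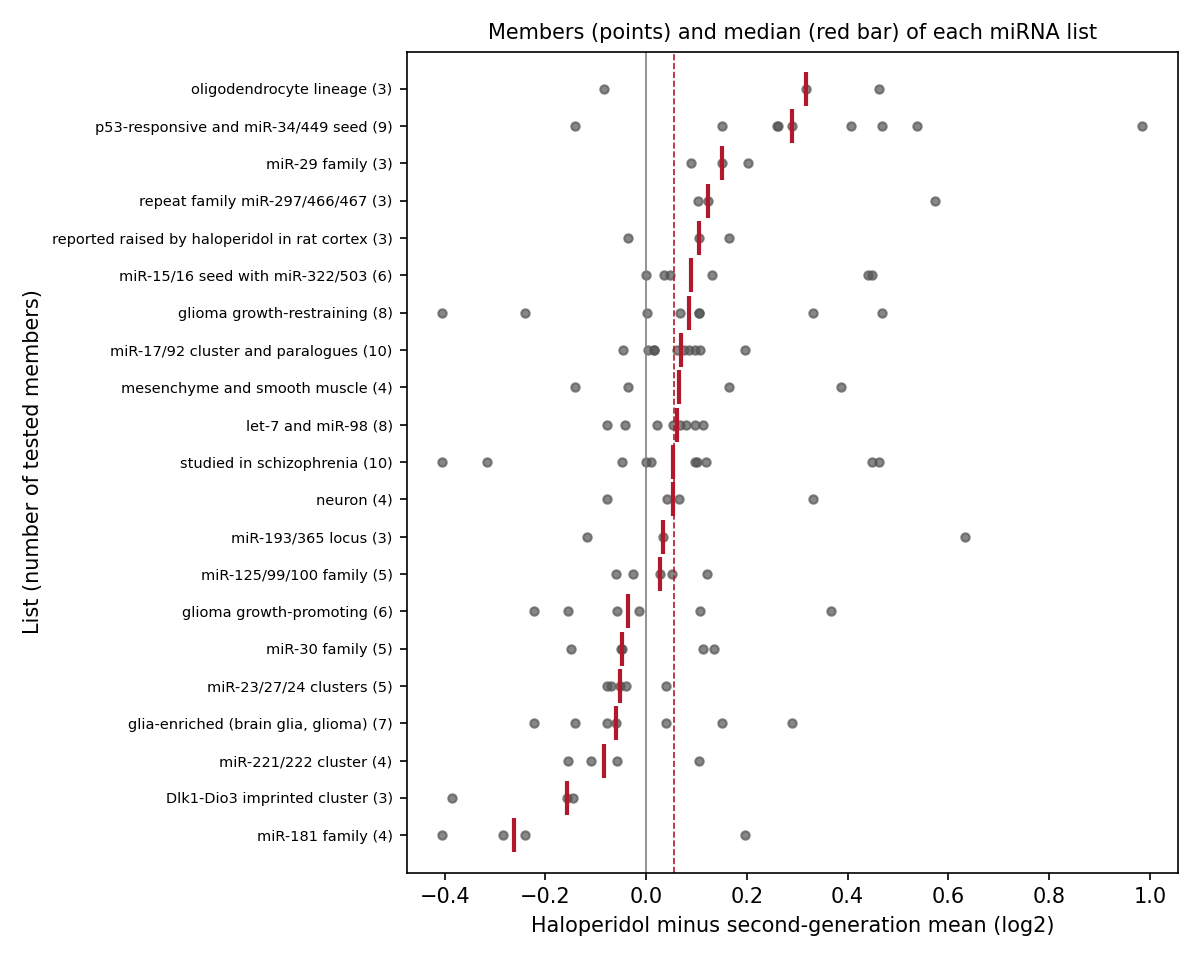
Haloperidol minus the second-generation mean (log2) for the tested members (points) of each list with at least 3 of them, with the list's median as a red bar, the number of members in parentheses, a grey line at 0 and a dashed line at the median of all 238 miRNAs (0.05). The list of p53-responsive miRNAs, miR-34 and miR-449 (median 0.29) lies to the right of the dashed line and the miR-181 family (-0.26) to the left; no member passed the threshold.

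Each second-generation drug was then compared with haloperidol by itself; both comparisons use the same haloperidol arrays. Limma called 0 of 238 (0.0%) for haloperidol minus risperidone, with 0 (0.0%) at an unadjusted p under 0.05 and a smallest adjusted p of 0.995. It called 0 (0.0%) for haloperidol minus clozapine, with 4 (1.68%) at an unadjusted p under 0.05 and a smallest adjusted p of 1.0. The first unadjusted count was 28 without risperidone replicate 1, and the second 14 without clozapine replicate 1 and 2 without clozapine replicate 2. Only miR-1839-5p reached 2-fold against risperidone (1 of 238, 0.42%) and only miR-34a-3p against clozapine (1 of 238, 0.42%), at log2 differences of 1.001 and 1.14. Differences lay above 0 for 145 miRNAs (60.9%) and below 0 for 89 (37.4%) against risperidone, and for 154 (64.7%) and 79 (33.2%) against clozapine. The interval stayed within 1 log2 unit of 0 for 131 miRNAs (55.0%) against risperidone and 133 (55.9%) against clozapine.

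The 4 past an unadjusted 0.05 against clozapine were miR-34a-5p, miR-181a-1-3p, miR-290 and miR-34a-3p. miR-34a-5p differed from clozapine by 0.60 (SE 0.14) and from risperidone by 0.33 (SE 0.14). miR-181a-1-3p differed from clozapine by -0.51 (SE 0.15) and from risperidone by -0.30 (SE 0.15). miR-34a-3p differed by 1.14 (SE 0.41) and 0.83 (SE 0.41). For these 3 the difference had the same sign against each drug, and their clozapine minus risperidone difference was not past an unadjusted 0.05.

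miR-290, from the cluster best known in pluripotent cells, stood between the second-generation drugs. Its levels were -1.76 and -2.07 under haloperidol, -1.50 and -1.55 under risperidone, and -2.36 and -2.31 under clozapine. Both risperidone arrays lay above and both clozapine arrays below haloperidol, so that the difference was -0.39 (SE 0.14, interval -0.78 to 0.0048) against risperidone, 0.41 (SE 0.14, interval 0.022 to 0.81) against clozapine and 0.014 against their mean. Of the other 10 miRNAs of the cluster on the array, all were detected on 0 arrays.

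Some miRNAs stood apart from 1 drug more than from the other. miR-21-3p had -1.11 and -0.85 under haloperidol, -0.68 and -0.28 under risperidone, and -1.08 and -0.81 under clozapine. Haloperidol thus lay below risperidone (-0.50, SE 0.21; -0.30 without risperidone replicate 2) and at -0.03 (SE 0.21) against clozapine. miR-362-5p lay above risperidone by 0.37 (SE 0.23; 0.17 without risperidone replicate 2, 0.21 without haloperidol replicate 2 and 0.57 without risperidone replicate 1) and above clozapine by 0.08 (SE 0.23). Against clozapine, miR-30e-3p (-0.28, SE 0.11), miR-30a-3p (-0.25, SE 0.13) and miR-23a-3p (-0.20, SE 0.10) were lower with haloperidol, and against risperidone they were at 0.07, 0.21 and 0.05.

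The brightest miRNAs differed little. miR-21-5p, widely raised in glioma, had levels of 6.98 and 7.39 under haloperidol, 7.26 and 7.43 under risperidone, and 7.25 and 7.68 under clozapine (difference -0.22, SE 0.20, interval -0.77 to 0.33). In each row the haloperidol array was the lowest, and row 2 was above row 1 for each drug. miR-125b-5p (-0.06, SE 0.10), miR-24-3p (0.04, SE 0.09), let-7f-5p (0.08, SE 0.13), let-7a-5p (0.02, SE 0.14), let-7c-5p (-0.04, SE 0.15) and miR-27a-3p (-0.05, SE 0.21) were all within 1 standard error of 0. The interval of miR-29b-3p (0.09) was wide, from -1.05 to 1.23, with clozapine replicate 1 at 2.53 against 3.09 to 3.73 on the other arrays.

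Detection calls ran the same way as overall signal. All 238 tested miRNAs were detected on both haloperidol arrays, 193 on both risperidone arrays and 199 on both clozapine arrays; 185 were detected on all 6. Only through haloperidol entered 31 of the 238, a set that this filter tilts toward haloperidol: 22 were above 0 and 5 below, and their median difference was 0.12, against 0.05 for the other 207, and none of the 16 non-overlapping miRNAs was among them. Another 23 were detected on both haloperidol arrays and both row 1 second-generation arrays but on neither row 2 second-generation array, the arrays with the lowest overall signal. No miRNA was detected on both haloperidol arrays and 0 second-generation arrays, and 1 was detected on a second-generation array and 0 haloperidol arrays. For miR-351-3p and miR-384-3p, detected on both haloperidol arrays and 0 clozapine arrays, no fold is given, because 1 haloperidol array was itself at the floor for each (the other was at -5.65 and -5.88). miR-1306-5p, miR-150-5p, miR-465-5p and miR-30c-1-3p were at the floor on all 6 arrays, so their difference is 0 by construction.

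Within a slide row, haloperidol minus the mean of risperidone and clozapine had the same sign in both rows for 166 of the 238 miRNAs (69.7%), with 107 (45.0%) above 0 in both and 59 (24.8%) below 0 in both. The rows share no array. Across miRNAs the differences of row 1 and row 2 had Pearson r = 0.50 (n = 238), and 0.61 among the 185 detected on all 6 arrays. By mean level, r was 0.42 for the 80 dimmest miRNAs, 0.75 for the 79 in between and 0.80 for the 79 brightest. For clozapine minus risperidone, computed the same way, r was -0.28. These are descriptions: miRNAs of an array share its RNA, labelling, signal and base composition effects, and haloperidol had the highest overall signal in each row; the part of signal in this agreement was not tested.

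The 80 dimmest miRNAs had a higher median than the rest. They had a median difference of 0.16, from 0.00 in row 1 and 0.36 in row 2, where the risperidone and clozapine arrays had their lowest overall signal. All 31 miRNAs tested through haloperidol alone were in this set; without them, an alternative chosen after seeing the data, the other 49 had a median of 0.21 (-0.02 in row 1 and 0.39 in row 2). The 79 brightest had a median of 0.02 (-0.01 in row 1 and 0.03 in row 2). miR-34a-5p and the 5p strands of miR-34b and miR-34c were among the brightest set, miR-449a-5p and the 5 tested miR-181 arms above the floor on every array in the middle set, and miR-34a-3p and miR-34b-3p in the dimmest.

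**Figure D4:**
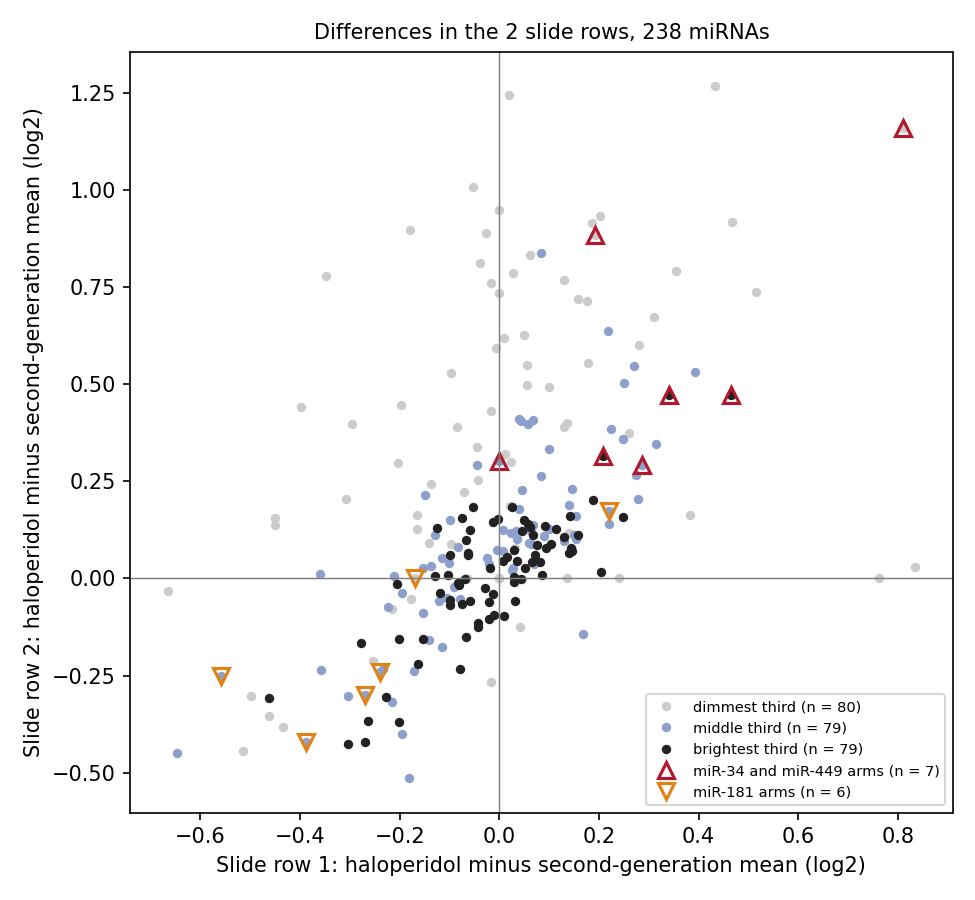
Haloperidol minus the mean of risperidone and clozapine (log2) in slide row 1 (horizontal) and row 2 (vertical), 1 point per miRNA, shaded by mean level, with triangles around miR-34 and miR-449 arms (pointing up) and miR-181 arms (pointing down). Dim miRNAs spread upward in row 2 (median 0.36), and r between rows was 0.80 for the 79 brightest. No miR-34 or miR-449 arm had a difference below 0 in either row. For miR-34a-5p, miR-34a-3p and miR-34b-3p this follows from haloperidol arrays above all others. miR-34c-3p lay at 0 in row 1, where it was at the floor.

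Strands of one hairpin shared a sign about as often as not: in 22 of 48 hairpins with both arms tested (45.8%). The 3 miR-34 hairpins and miR-21 (5p -0.22, 3p -0.27) were among those that did, and miR-23a (5p 0.48, 3p -0.08) and miR-338 (5p 0.32, 3p -0.08) among those that did not. Of the 26 seeds shared by 2 or more tested miRNAs, 15 had all members on one side of 0. In hairpins within 10 kb of each other, the miR-34b and miR-34c pair (4 of 4 above 0, median 0.33) and the miR-195 and miR-497 pair (0.45 and 0.44, each with 1 array at the floor) had the highest medians. The miR-181a-1 and miR-181b-1 pair had the lowest (-0.40). A miRNA with several copies was placed at only 1 of them here, so miR-181a-5p does not enter that pair. The difference was weakly related to the GC content of the mature strand (r = -0.14, n = 210 miRNAs with a RefSeq sequence). For clozapine minus risperidone the same r was -0.50.

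The labelled glial tumour line was checked against marker lists. All 7 members of the list labelled glia-enriched (brain glia, glioma) were tested (median difference -0.06). The list holds miR-449a-5p (0.29), and whether its members are particular to glia was not tested. Its summed linear levels were 215 to 257 on haloperidol arrays and 242 to 296 on the others. The brightest member, miR-21-5p, weighs most in that sum, with log2 levels of 6.98 to 7.68 over the arrays. All 7 epithelial markers were detected on 0 arrays. Of the erythrocyte and serum list 4 of 5 were on the array and 0 were tested. Of these 4, miR-144-3p, miR-144-5p and miR-122-5p were detected on 0 arrays. The remaining member was not, and the summed level was 0 to 0.017 with haloperidol and 0 to 0.014 otherwise. Of the neuronal list 4 of 7 were tested (miR-218a-5p at 0.33 and 3 miR-129 arms from -0.08 to 0.07; summed level 3.83 to 7.19 with haloperidol and 3.70 to 6.68 otherwise), while miR-124-3p, miR-124-5p and miR-137-3p were detected on 0 arrays. Of the microglia and leukocyte list 4 of 5 were on the array. Of these miR-150-5p alone was tested, at the floor on all 6 arrays, and miR-142-5p was detected on 0 arrays. The remaining members on the array were each detected on at least 1 array without being tested. The list's summed level was 0.014 to 0.044 with haloperidol and 0 to 0.042 otherwise. Of the mesenchyme and smooth muscle list 4 of 6 were tested (median 0.07, from -0.14 for miR-143-3p to 0.39 for miR-214-3p), and of the skeletal muscle list 1 of 5 (miR-133b-3p, 0.43). Of the oligodendrocyte list 3 of 4 were tested, with summed levels of 1.05 to 1.38 with haloperidol and 0.98 to 1.64 otherwise; miR-219-5p was at 0.46 (SE 0.57), miR-338-5p at 0.32 (SE 0.52) and miR-338-3p at -0.08 (SE 0.25). Endothelial miR-126a-3p differed by 0.41 (SE 0.36) at a summed list level of 0.08 to 0.11 against 0.05 to 0.09. The part of these markers in the other differences was not tested.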

How the data were processed

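Total RNA of C6 cultures was labelled with Cy3 and hybridised to Agilent rat miRNA arrays, all on one slide. The deposited intensity per spot (processed signal, background-subtracted) and the deposited flags, coded 0 or 1 (other), came from Agilent Feature Extraction 10.7.3.1, per the file headers; per the labels' protocols 100 ng of RNA was used. Outlier-flagged and control spots were left out, spots were averaged per probe and probes summed per miRNA. Each array was divided by its 75th percentile over 296 probes with a share of at least 0.5 of their spots well above background on all 6 arrays, floored at the 5th percentile of detected values (0.0136) and set on the log2 scale. limma 3.58.1 in R 4.3.3 fitted 1 mean per drug over the 6 arrays (3 residual degrees of freedom, 4.24 in all after moderation), with Benjamini-Hochberg adjustment over the 238 miRNAs. The fit was tested on simulated data with independent noise on each array. Same-numbered arrays of the real data deviated together, a setting that the simulation does not cover. Exact permutation tests of array measures used all 15 splits, so 0.0667 was the smallest p possible. Tables were made in Python 3.11.15 with pandas 2.3.3 and numpy 2.4.6.

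Named miRNAs were those past the threshold (none), those whose haloperidol arrays lay outside the range of the others, those with the smallest p among up to 4 per direction against each drug, those detected in 1 class alone (none), the 10 brightest and members of the lists. The members and lists were chosen with earlier results of these data known. Alternatives covered scaling, background, probe summary, detection filter, floor, design, variance model, the replicate block and each array left out. RefSeq held a sequence for 210 of the 238 miRNAs. The control arrays were not used here. The number of arrays limits the precision.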

Additional observations from a re-analysis of the deposited data

Results flagged for a closer look

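For 3 named miRNAs both haloperidol arrays lay between both risperidone arrays and both clozapine arrays. Only named miRNAs were searched for this ordering, and its share over all 238 was not counted. The difference from haloperidol thus had opposite signs against risperidone and clozapine. For each of the 3, the difference between those drugs themselves passed an unadjusted p under 0.05 in limma. The ordering that picked them already sets the arrays of those drugs apart, so this p is no separate support. After adjustment over the 238 miRNAs each had a limma p of 1.0. Clozapine minus risperidone was -0.80 on the log2 scale for miR-290 (SE 0.14, 95% interval -1.20 to -0.41), with haloperidol between them in all arrays. For miR-30a-3p it was 0.45 (SE 0.13, interval 0.10 to 0.80): haloperidol was 0.21 above risperidone and at -0.25 against clozapine. For miR-487b-3p, from the Dlk1-Dio3 cluster, it was -0.58 (SE 0.19, interval -1.10 to -0.065): haloperidol was at -0.44 against risperidone (-0.21 without risperidone replicate 2 and -0.67 without risperidone replicate 1) and 0.15 above clozapine. The levels of miR-487b-3p were -4.00 and -3.85 under haloperidol, -3.72 and -3.26 under risperidone, and -4.06 and -4.09 under clozapine.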

How the results depend on the processing

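The number of miRNAs called was 0 for each of the 3 comparisons in all settings run (20, 18 and 18 settings), with smallest adjusted limma p of 0.338, 0.387 and 0.280. The count at an unadjusted p under 0.05 ranged from 0 to 18, 0 to 28 and 0 to 14. The number of miRNAs with groups that did not overlap was 26 with no scaling, 35 with normexp and 54 without both row 2 second-generation arrays (chosen after seeing the data), and 21 to 76 with 1 array left out. The share with the same sign in both rows was 63.0% with quantile normalization, 94.96% with no scaling, 92.9% with normexp, 23.4% with no detection filter, and 51.7% to 70.6% with 1 array left out. Of 437 values of named miRNAs under alternatives 408 kept their direction and 29 turned; the cause was not tested. With no scaling these were miR-181a-1-3p (0.39), miR-181b-5p (0.39), miR-181d-5p (0.51), miR-212-3p (0.48), miR-30d-5p (0.65) and miR-331-3p (0.25), against risperidone miR-21-3p (0.40), miR-290 (0.51) and miR-487b-3p (0.46), and against clozapine miR-23a-3p (0.50), miR-30a-3p (0.45) and miR-30e-3p (0.42). With the percentile over all probes they were miR-185-5p (-0.31), miR-29a-3p (-0.33), miR-34a-5p (-0.012), miR-466b-5p (-0.38), miR-500-3p (-0.21), miR-93-5p (-0.37), miR-98-5p (-0.38), miR-290 against clozapine (-0.10) and miR-362-5p against risperidone (-0.072). With normexp they were miR-1839-5p (-0.88), miR-185-5p (-0.48), miR-34a-3p (-0.75), miR-34b-3p (-0.88), miR-466b-5p (-0.44), miR-500-3p (-0.36), miR-290 against clozapine (-0.37) and miR-362-5p against risperidone (-0.48). With the replicate number as a block, 0 miRNAs were called (smallest adjusted limma p 0.796) and 8, 2 and 9 had an unadjusted p under 0.05. Same-numbered arrays deviated together (r = 0.63 for haloperidol with risperidone, 0.65 with clozapine and 0.13 for risperidone with clozapine, over 185 miRNAs), but there are only 2 numbers and the labels do not state that a number marks a shared batch. A floor at the 1st percentile was not run because that value lay below 0 and has no logarithm; the 10th percentile took its place after seeing the data.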
